A study of Homo sapiens with 6 samples.

Results

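The 10 genes described here encode the steps that carry a signal from a Gq-coupled receptor, such as the muscarinic M3 receptor, to calcium release and protein kinase C. They comprised the G protein alpha subunits GNAQ and GNA11, the phospholipase C beta enzymes PLCB1, PLCB3 and PLCB4, the IP3 receptors ITPR1, ITPR2 and ITPR3, and the kinases PRKCA and PRKCD. The genes were taken by name from this pathway and not by their values, although earlier results of these data were known. All 10 were found among the 61731 genes and loci measured. CHRM3, the gene for the M3 receptor, was the target of the knockdown, so the question was whether the genes directly downstream of it differed between knockdown and control cells.

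When acetylcholine binds an M3 receptor, Gq or G11 is loaded with GTP and switches on phospholipase C beta, which splits the membrane lipid PIP2 into IP3 and diacylglycerol. IP3 opens IP3 receptors in the endoplasmic reticulum and releases calcium, while diacylglycerol, together with calcium for the conventional enzymes, activates protein kinase C. In glioma cells, protein kinase C alpha has long been studied for its part in growth, and calcium signals through IP3 receptors for their part in migration.

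RNA was sequenced from U87-MG cells, an established human glioblastoma cell line. Of the 6 libraries, 3 came from negative control cells (NC, labelled as normal control) and 3 from cells labelled as CHRM knockdown (KD), which the study made by infection with a lentivirus against CHRM3. The sources used here do not say which of the study's knockdown sequences the KD cells carried, whether the cells were a clone or a pool, or whether each library is its own culture, so the p-values below measure only the spread between these libraries. Levels were deposited as TPM, the share of each library that a gene's transcripts hold after correction for their length, a unit that keeps no read depth. The depth of each library is therefore unknown.

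The knockdown itself could not be judged from these data, because CHRM3 lay far under 1 TPM in every library. The paper reports an efficient knockdown of CHRM3 in U87-MG cells from its own assays, which are not part of these data. CHRM3 was 0.02, 0.09 and 0.13 TPM in NC replicates 1, 2 and 3 and 0.13, 0.01 and 0.02 TPM in KD replicates 1, 2 and 3 (p = 0.8 in an exact two-sided permutation test, which cannot go below 0.1 with 3 against 3 libraries). Every direction below is therefore that of the libraries labelled KD. Between 13518 and 13664 genes per library reached 1 TPM, and Pearson's r of log2(TPM + 1) across the tested genes was 0.976 to 0.979 within groups and 0.964 to 0.969 between groups. All 8 markers of the line, such as VIM, CD44 and FN1, were above the limit for testing. Of them, 7 passed the limma test described below, 4 higher and 3 lower in KD, beside 36.1% of all tested genes. The largest change was that of TIMP1, which fell from 1798 ± 12.8 to 549 ± 2.17 TPM (SD, n = 3 each). Of 10 leukocyte markers, TYROBP and CD3E were listed at 0 TPM in all 6 libraries. The summed level of that list was 371.4 to 379.1 TPM in NC and 226.1 to 239.4 TPM in KD, carried by CD68 and LCP1. The 8 neuron markers summed to 26.0 to 27.5 TPM in NC and 29.1 to 31.3 TPM in KD, with STMN2 listed at 0 TPM throughout. The part of these shifts in the results below was not tested.

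PRKCA rose in the KD libraries, and none of the other 9 genes passed the test. The limma test compared log2(TPM + 1) in the 13722 genes that averaged 1 TPM or more, and a gene passed at a Benjamini-Hochberg adjusted p under 0.05 over all of them. All 10 genes reached this limit. The 1 gene of 10 that passed stands beside a background of 36.1% of all tested genes, which split into 12.1% higher and 24.0% lower in KD, and none of the 10 reached a log2 fold change of 1, beside 1.87% of all tested genes that passed and did. For 5 of the 10 genes (PLCB1, PLCB4, ITPR1, ITPR2 and PRKCA) the 3 values of a group lay wholly above or below those of the other group, beside 50.2% of all tested genes. The median log2 fold change of the 10 genes was 0.02, beside -0.06 for all tested genes, and the median size of the change regardless of sign was 0.16 beside 0.18.

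**Figure D1:**
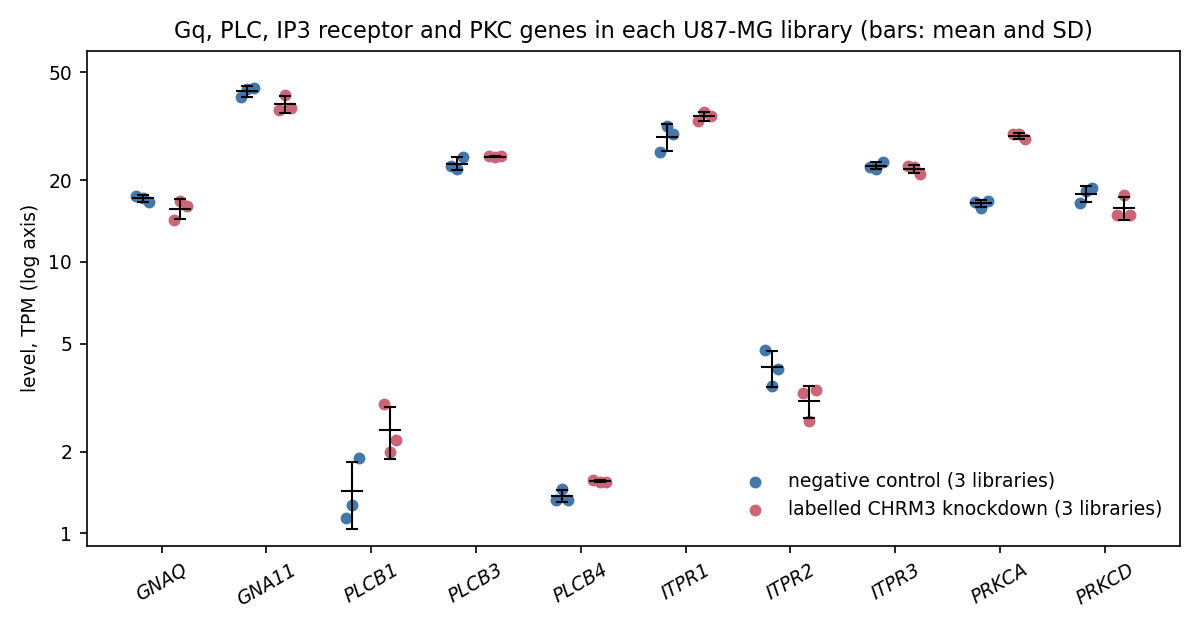
Level of each of the 10 genes in TPM (log axis) in the 3 negative control libraries (blue) and the 3 libraries labelled CHRM3 knockdown (red), with the mean and SD of each group as black bars. PRKCA is the gene whose groups stand farthest apart relative to their spread, at 15.84 to 16.82 TPM in NC and 28.27 to 29.63 TPM in KD.

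PRKCA (ENSG00000154229) encodes protein kinase C alpha, a conventional isoform that needs both calcium and diacylglycerol. Its level was 16.61, 15.84 and 16.82 TPM in NC replicates 1, 2 and 3 and 29.63, 29.51 and 28.27 TPM in KD replicates 1, 2 and 3. All KD libraries lay above all NC libraries, and the means were 16.4 ± 0.516 and 29.1 ± 0.753 TPM (SD, n = 3 each), a ratio of 1.77. The log2 fold change was 0.79 (standard error 0.0413, 95% interval 0.69 to 0.89, limma adjusted p = 4.79e-05), and 2.06% of the tested genes rose by more. It spans chr17:66302636-66810743 on the plus strand (GRCh38, GENCODE 29, as for all genes below). PRKCA-AS1, an antisense gene within it, had a mean of at most 0.0167 TPM in a group.

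PRKCD (ENSG00000163932, chr3:53156009-53192717) encodes protein kinase C delta, an isoform that needs diacylglycerol but not calcium. Its level was 16.48, 18.19 and 18.72 TPM in NC and 14.87, 17.64 and 14.94 TPM in KD. The groups overlapped, since KD replicate 2 lay within the NC range and the other KD libraries lay below it. The log2 fold change of -0.16 (95% interval -0.36 to 0.03) did not pass the test (limma adjusted p = 0.169). Of the alternatives, it passed only without KD replicate 2, at -0.24 (limma adjusted p = 0.0478). With median-of-ratios scaling it was -0.096 and with quantile normalization -0.084 (limma adjusted p = 0.394 and 0.458).

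The shares of the protein kinase C genes in their summed level are given as a description. PRKCA and PRKCD held nearly equal shares in NC, where PRKCA was 31.0%, 28.6% and 29.1% of the summed TPM of 9 protein kinase C genes. In KD its share was 45.6%, 42.8% and 44.8%. The mean share of PRKCA was 29.6% ± 1.26 in NC and 44.4% ± 1.42 in KD (SD, n = 3 each), while that of PRKCD was 32.0% ± 1.11 and 24.0% ± 1.40 and that of PRKCI 20.2% ± 2.01 and 15.2% ± 0.403. Shares of 1 sum are tied, so a higher share of PRKCA lowers the others. For these 3 genes the groups did not overlap, and the exact two-sided permutation test gave the smallest p that 3 libraries against 3 allow (p = 0.1), so no share can pass at 0.05. In all, 9 shares were compared within 4 families. The summed level of the family was 53.59 to 57.86 TPM in NC and 63.09 to 68.92 TPM in KD.

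Among the other protein kinase C genes, the tested ones did not pass. PRKCI, an atypical isoform that needs neither calcium nor diacylglycerol, was 10.49, 10.32 and 13.02 TPM in NC and 10.06, 10.17 and 9.74 TPM in KD (log2 fold change -0.15, limma adjusted p = 0.237). PRKCH and PRKCE, of the same class as PRKCD, had means of 5.95 and 4.03 TPM in NC and 6.08 and 4.35 TPM in KD (limma adjusted p = 0.846 and 0.611). PRKCB, a conventional isoform like PRKCA, was listed at 0 TPM throughout. PRKCQ reached at most 0.03 TPM and PRKCZ at most 0.58 TPM.

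**Figure D2:**
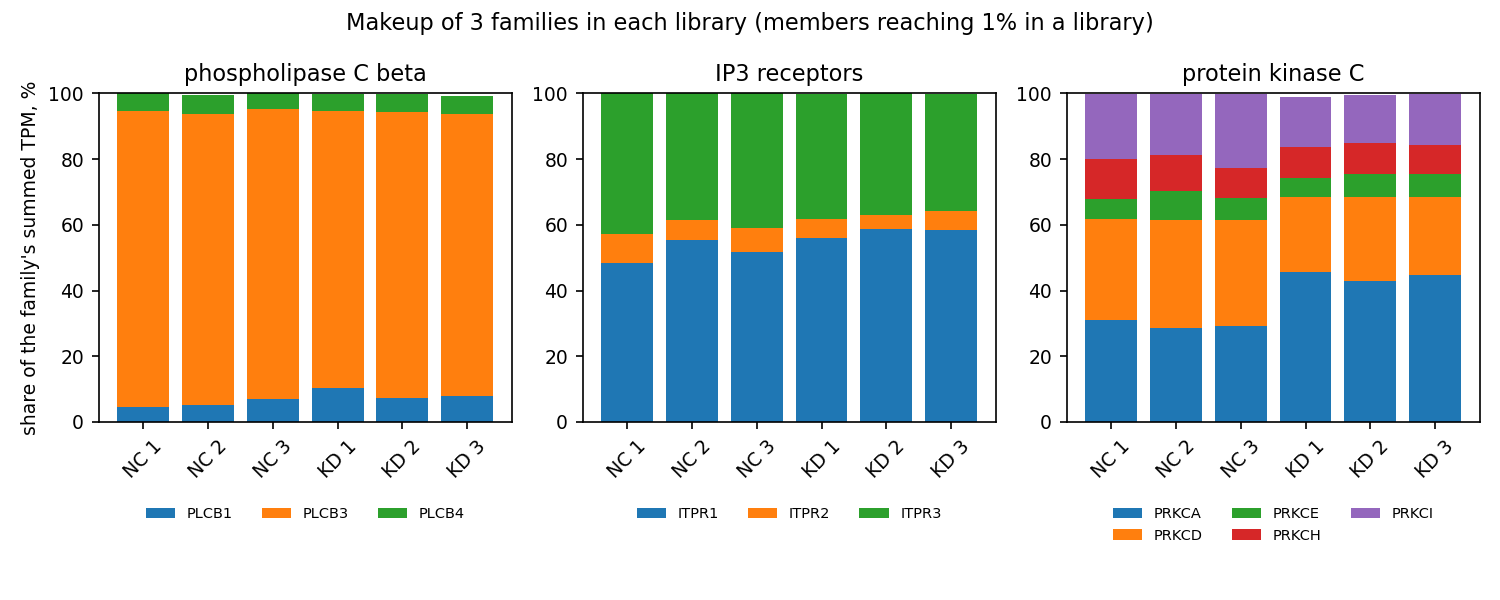
Share of each family's summed TPM (vertical axis, percent) held by each gene, in 1 bar per library (NC, negative control; KD, labelled CHRM3 knockdown), for genes that reach 1% in a library. PLCB3 holds most of the phospholipase C beta family in every library, and PRKCA goes from 28.6% to 31.0% of the protein kinase C family in NC to 42.8% to 45.6% in KD.

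The IP3 receptors are the calcium channels that IP3 opens. ITPR1 (ENSG00000150995, chr3:4493345-4847840, plus strand) was the most abundant of them, at 25.34, 31.80 and 29.51 TPM in NC and 33.06, 35.68 and 34.59 TPM in KD. All KD libraries lay above all NC libraries, although the gap between the nearest values was smaller than the range of the NC libraries. The log2 fold change was 0.25 (standard error 0.0825, 95% interval 0.05 to 0.45), just outside the threshold (limma adjusted p = 0.0555). It passed after median-of-ratios scaling (0.32, limma adjusted p = 0.0257), after quantile normalization (0.32), with a limit of 5 TPM and without NC replicate 2 (0.32, limma adjusted p = 0.0289), and was 0.16 without NC replicate 1, the lowest of the controls (limma adjusted p = 0.0793).

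ITPR2 (ENSG00000123104, chr12:26336515-26833198, minus strand) was the least abundant IP3 receptor. Its level was 4.72, 3.49 and 4.04 TPM in NC and 3.28, 2.60 and 3.36 TPM in KD. The groups did not overlap, with the KD libraries below, but the log2 fold change of -0.32 (95% interval -0.62 to -0.01) did not pass after adjustment (limma adjusted p = 0.0991).

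ITPR3 (ENSG00000096433, chr6:33620365-33696574, plus strand) was 22.42, 22.03 and 23.42 TPM in NC and 22.56, 22.46 and 21.13 TPM in KD. The groups overlapped, and its log2 fold change of -0.04 (95% interval -0.14 to 0.07, limma adjusted p = 0.573) became 0.032 with median-of-ratios scaling and 0.047 with quantile normalization. Together the 3 receptors summed to 52.48 to 57.32 TPM in NC and 58.90 to 60.74 TPM in KD. The share of ITPR1 in this sum was 51.9% ± 3.60 in NC and 57.8% ± 1.46 in KD, that of ITPR3 40.8% ± 2.17 and 37.0% ± 1.27, and that of ITPR2 7.39% ± 1.48 and 5.18% ± 0.780 (SD, n = 3 each). For each of the 3 shares the groups did not overlap, and the exact permutation test gave its smallest p (p = 0.1), so none can pass at 0.05. These shares are tied as well, so a higher share of ITPR1 lowers the others, and they are not 3 separate results.

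An antisense gene at the end of ITPR1 went the other way. ENSG00000235978 (chr3:4814294-4887293, minus strand) shares 444 of its 1251 exon bases with exons of ITPR1. It was singled out from the 22 genes that overlap the 10 by position, of which it and UQCC2 reached a group mean of 1 TPM. Its level was 4.06, 3.60 and 4.43 TPM in NC and 0.92, 1.57 and 1.91 TPM in KD (log2 fold change -1.05, limma adjusted p = 0.00441). How the authors' counting used strand is not given in the sources used here, so reads from ITPR1 and this gene may not be fully told apart. UQCC2, which overlaps the end of ITPR3 on the opposite strand and shares 1025 exon bases with it, had means of 36.2 TPM in NC and 37.7 TPM in KD (limma adjusted p = 0.56), and the same limit holds for ITPR3, which has 9870 exon bases.

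The alpha subunits link the receptor to the enzyme. GNA11 (ENSG00000088256, chr19:3094410-3124004, plus strand) was the most abundant of the 10 genes, at 40.41, 43.55 and 43.67 TPM in NC and 36.23, 41.12 and 36.76 TPM in KD. The groups overlapped by KD replicate 2, which lay above NC replicate 1. The log2 fold change was -0.16 (95% interval -0.30 to -0.02), which did not pass (limma adjusted p = 0.0792). Of the alternatives, it passed only without KD replicate 2, at -0.21 (limma adjusted p = 0.0243). With median-of-ratios scaling it was -0.090 and with quantile normalization -0.072 (limma adjusted p = 0.271 and 0.383).

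GNAQ (ENSG00000156052, chr9:77716087-78031458, minus strand) was 17.52, 17.26 and 16.61 TPM in NC and 14.23, 16.82 and 16.10 TPM in KD. The groups overlapped, and the log2 fold change was -0.12 (95% interval -0.28 to 0.04, limma adjusted p = 0.211). GNAQ made up 28.7% ± 1.38 of the sum of the 2 genes in NC and 29.2% ± 1.14 in KD (SD, n = 3 each; exact permutation test, p = 0.6). The other Gq class genes were hardly present. GNA14 reached at most 0.10 TPM, and GNA15, which starts 12188 bases beyond the end of GNA11 on the same strand, at most 0.23 TPM.

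Sequence shared with other transcripts, both read in their sense direction, was rare in the 10 genes. This count does not cover genes on the opposite strand, such as those at ITPR1 and ITPR3 above. In the longest coding transcript of GNAQ, 4.39% of the windows of 50 bases also occurred in another gene's transcript, in each case the pseudogene GNAQP1, itself at 0 TPM in every library. The share was below 1% for the other 9 genes, and no window of 150 bases was shared for any of the 10. GNAQ and GNA11 had no such window in common.

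The phospholipase C beta enzymes make IP3 and diacylglycerol. PLCB3 (ENSG00000149782, chr11:64251523-64269150, plus strand) supplied most of their RNA, at 22.60, 22.06 and 24.41 TPM in NC and 24.46, 24.27 and 24.58 TPM in KD. The KD libraries lay close together at the top of the NC range, and the log2 fold change of 0.08 (95% interval -0.03 to 0.19) did not pass (limma adjusted p = 0.207). It was 0.15 and passed with median-of-ratios scaling (limma adjusted p = 0.0425), and 0.16 with quantile normalization.

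PLCB1 (ENSG00000182621) was low, at 1.14, 1.27 and 1.89 TPM in NC and 2.99, 2.0 and 2.21 TPM in KD. All KD libraries lay above all NC libraries, by 0.11 TPM at the nearest, and KD replicate 1 stood highest. The ratio of the means was 1.67, and the log2 fold change, which the pseudocount of 1 makes smaller for so low a gene, was 0.48 (standard error 0.172, 95% interval 0.07 to 0.90). It did not pass (limma adjusted p = 0.0702), and it was 0.61 and passed without NC replicate 3 (limma adjusted p = 0.0458).

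PLCB4 (ENSG00000101333) was 1.33, 1.45 and 1.33 TPM in the NC libraries and 1.57, 1.55 and 1.55 TPM in KD. These groups did not overlap either, but the log2 fold change was 0.11 (95% interval -0.15 to 0.37, limma adjusted p = 0.47). PLCB1 (chr20:8077251-8968360) and PLCB4 (chr20:9068763-9481242) are neighbours on the plus strand. PLCB2, the member of the family best known from blood cells, reached at most 0.26 TPM. PLCB3 held 89.1% ± 0.954 of the summed TPM of the family in NC and 85.8% ± 1.44 in KD. PLCB1 held 5.50% ± 1.20 and 8.40% ± 1.67 (SD, n = 3 each). The exact permutation test gave its smallest p for both (p = 0.1). These shares are tied too, so a higher share of PLCB1 lowers that of PLCB3.

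**Figure D3:**
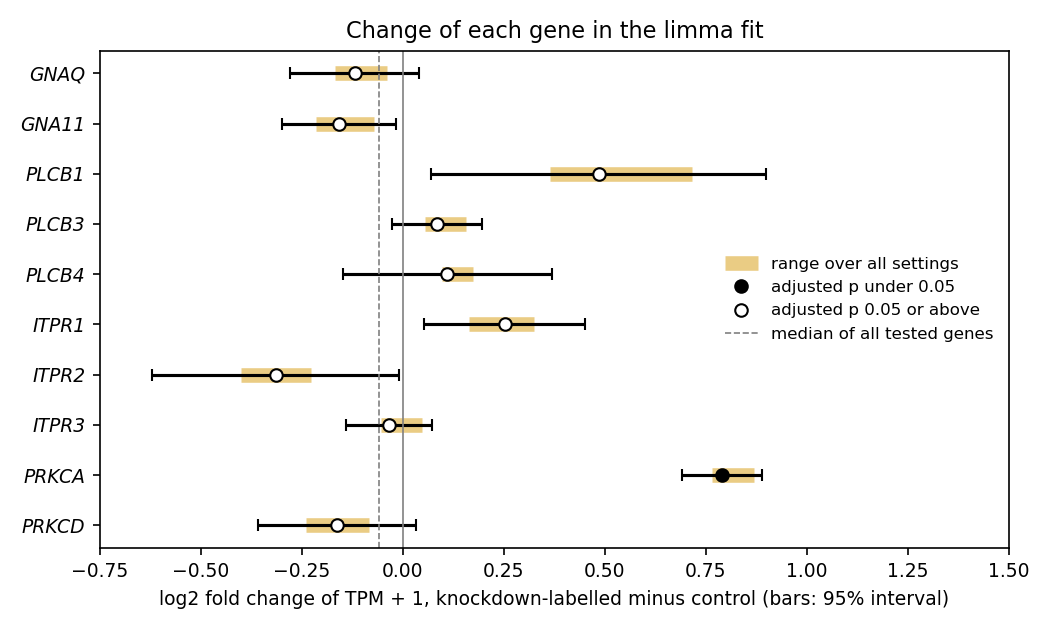
Log2 fold change of TPM + 1, knockdown-labelled minus control, of each gene (horizontal axis) with its 95% interval from the limma fit (black bars). Filled points passed at an adjusted p under 0.05, yellow bands span the estimates over all settings tried, and the dashed line is the median of all tested genes. PRKCA is the only filled point, with a band from 0.77 to 0.87, and the band of ITPR3 crosses 0.

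The order of the levels within the libraries differed at PRKCA. In NC it ran from GNA11 at 42.5 TPM through ITPR1 (28.9), PLCB3 (23.0), ITPR3 (22.6), PRKCD (17.8), GNAQ (17.1) and PRKCA (16.4) to ITPR2 (4.08), PLCB1 (1.43) and PLCB4 (1.37 TPM). The ranges of neighbouring genes overlapped between PLCB3 and ITPR3, among PRKCD, GNAQ and PRKCA, and between PLCB1 and PLCB4, so these neighbours were not set apart by their spread. In KD, PRKCA stood 3rd at 29.1 TPM, below ITPR1 at 34.4 and above PLCB3 at 24.4 TPM, with no overlap on either side.

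The sequences before the starts of PRKCA and ITPR1 are shown because these were the gene that passed and the gene nearest to passing among those above 10 TPM. They are the 250 bases upstream of the RefSeq start (GRCh38.p14, plus strand), chr17:66302363-66302612 for PRKCA and chr3:4493098-4493347 for ITPR1, with the motif GGGCGG (the GC box bound by Sp1, searched on both strands) in capitals.
PRKCA: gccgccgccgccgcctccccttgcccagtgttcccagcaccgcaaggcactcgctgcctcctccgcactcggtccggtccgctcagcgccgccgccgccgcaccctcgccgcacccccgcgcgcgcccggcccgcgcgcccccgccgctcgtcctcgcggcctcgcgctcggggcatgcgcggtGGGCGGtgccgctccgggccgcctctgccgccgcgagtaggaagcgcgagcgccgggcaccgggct
ITPR1: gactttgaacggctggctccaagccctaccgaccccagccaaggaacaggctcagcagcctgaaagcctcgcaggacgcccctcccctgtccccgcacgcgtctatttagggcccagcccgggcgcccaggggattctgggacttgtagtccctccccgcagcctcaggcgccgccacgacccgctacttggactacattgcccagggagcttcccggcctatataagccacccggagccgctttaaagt

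The sequence of PRKCA was 82% G and C with 47 CpG dinucleotides and 1 GC box, and that of ITPR1 was 64.8% G and C with 17 CpG dinucleotides and 0 GC boxes, beside a median of 58% and 11 CpG over 35116 promoters. Of the 10 genes, 6 were matched in the promoter table (GNA11, PLCB3, ITPR1, ITPR3, PRKCA and PRKCD), and the GC box was found in 5 of them and in 42.6% of all promoters. The AP-1 motif TGACTCA, held by 4.2% of all promoters, was found in 0 of the 6. The cyclic AMP response element TGACGTCA, held by 1.65% of all promoters, was also found in 0. The same was true of the E box CACGTG, held by 6.35% of them. Of the 6 promoters, 2 (GNA11 and PLCB3) held CCAAT, the motif bound by the factor NF-Y, beside 32.0% of all. All motifs were searched on both strands in these 250 bases, and no binding or methylation was measured.

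The wider pathway was described by 12 lists of 208 genes, the paralogs above included, of which 136 were tested. Of these, 21 were higher and 35 lower in KD past the limma test, or 41.2% of them beside 36.1% of all tested genes. With median-of-ratios scaling the split was 27 higher and 25 lower, and over all tested genes 2310 higher and 2230 lower in place of 1660 and 3295. The calls of RIC8B, OCRL, GPR39, PI4KA, PIP4K2C, DGKG, ORAI2, SARAF, RCAN1 and GRK6 were lost under both median-of-ratios scaling and quantile normalization, and those of HSPA9 and PPP3CC under quantile normalization (limma adjusted p = 0.0786 and 0.0562). Each count of a list below stands beside the same background of 12.1% higher and 24.0% lower, a split that the other scalings make nearly even. The genes named below include, beside the largest change and the most abundant gene of each list, those behind small counts, which were chosen after their values were seen.

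Among 40 receptors known to couple to Gq, 14 were tested and 5 passed, 1 higher and 4 lower. S1PR3, a receptor for sphingosine 1-phosphate, fell from 11.14, 11.35 and 11.14 TPM in NC to 3.94, 4.24 and 4.50 TPM in KD (log2 fold change -1.23, limma adjusted p = 4.12e-05). BDKRB1, the inducible bradykinin receptor and the most abundant of the list, fell from 31.9 ± 2.52 to 20.1 ± 1.40 TPM (SD, n = 3 each; limma adjusted p = 0.000977). The thrombin receptor F2R rose from 5.21 ± 0.450 to 8.03 ± 0.343 TPM (SD, n = 3 each; limma adjusted p = 0.00219). TBXA2R and GPR39 fell by 0.41 and 0.31 on the log2 scale. Each call was lost under 5 of the 6 fits that left out a library, with the exception of NC replicate 2 for TBXA2R and NC replicate 3 for GPR39 (limma adjusted p up to 0.0925 and 0.116).

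Of the 20 G beta and gamma subunits and their helpers, 14 were tested. GNG2 rose from 6.27 to 8.50 TPM, and GNG11, RIC8A, RIC8B and PDCL fell, the last not past the test without KD replicate 1 or KD replicate 3 (limma adjusted p up to 0.0542). RIC8A, a chaperone of Gq class alpha subunits, was 126.05, 128.14 and 112.69 TPM in NC and 93.56, 94.10 and 100.79 TPM in KD (log2 fold change -0.34, limma adjusted p = 0.00449). RIC8B had the largest log2 fold change past the test (-0.42, limma adjusted p = 0.0415), a call lost without any 1 library other than KD replicate 2 (limma adjusted p up to 0.121). GNB1, the most abundant subunit, had means of 277.3 and 269.1 TPM and did not pass (limma adjusted p = 0.303).

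The lipid steps around phospholipase C held genes that passed in both directions. Of the 6 tested phospholipase C genes outside the beta class, PLCG1, which acts below receptor tyrosine kinases, fell from 61.0 ± 2.77 to 50.1 ± 1.04 TPM (SD, n = 3 each; limma adjusted p = 0.00269), and the other 5 did not pass. Of 14 tested genes that supply PIP2, 3 rose (PITPNA, PI4K2B and PIP4K2A) and 5 fell (CDIPT, PI4KA, PI4K2A, PIP5K1C and PIP4K2C). The calls of PITPNA, PI4K2B, PIP4K2A, PI4KA and PIP4K2C were each lost under 3 or more of the fits that left out a library. CDIPT, which makes phosphatidylinositol, fell from 107.0 ± 2.96 to 85.5 ± 4.27 TPM, and PI4K2A, a phosphatidylinositol 4-kinase, from 35.1 ± 0.893 to 25.8 ± 0.785 TPM (SD, n = 3 each; limma adjusted p = 0.00185 and 0.000373).

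Of 11 tested genes listed under IP3 turnover, OCRL alone passed. It fell by 0.22 on the log2 scale (limma adjusted p = 0.0303), a call lost without any 1 library other than KD replicate 1 (limma adjusted p up to 0.0942). IMPA2, the most abundant of them, had means of 39.0 and 40.2 TPM (limma adjusted p = 0.718). Of 11 tested genes that convert diacylglycerol, DGKD rose and DGKG, DAGLB and MGLL fell. DGKG did not pass without NC replicate 2 or 3, nor DAGLB without NC replicate 1, NC replicate 2 or KD replicate 2 (limma adjusted p up to 0.0715 and 0.0647). MGLL, which breaks down the product of the diacylglycerol lipases, fell from 140.07, 143.88 and 140.31 TPM in NC to 83.83, 89.40 and 85.51 TPM in KD (log2 fold change -0.71, limma adjusted p = 2.27e-05).

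Targets of diacylglycerol and protein kinase C moved in both directions. Of 10 tested, GAP43, ADD1 and ADD3 rose and PRKD2 and MARCKS fell. GAP43, a neuronal growth-associated protein that protein kinase C phosphorylates, was 1.91, 1.65 and 1.88 TPM in NC and 5.26, 4.21 and 5.34 TPM in KD (log2 fold change 1.07, limma adjusted p = 0.000639). PRKD2, a kinase that protein kinase C activates, was 16.27, 15.25 and 17.43 TPM in NC and 8.64, 8.44 and 8.16 TPM in KD (log2 fold change -0.88, limma adjusted p = 0.000139). MARCKS, a substrate of protein kinase C at the membrane, fell by 0.25 on the log2 scale, and ADD1, another substrate and the most abundant of the list, rose by 0.17 (limma adjusted p = 0.00402 and 0.00861). Of the 3 neuron markers tested, SNAP25 and MAP2 also rose, from 9.74 to 13.8 TPM and from 1.53 to 3.30 TPM. The third, GAD1, was 14.96, 15.01 and 15.74 TPM in NC and 11.56, 13.28 and 13.96 TPM in KD (log2 fold change -0.22, limma adjusted p = 0.0534). The part of these markers in this list was not tested.

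**Figure D4:**
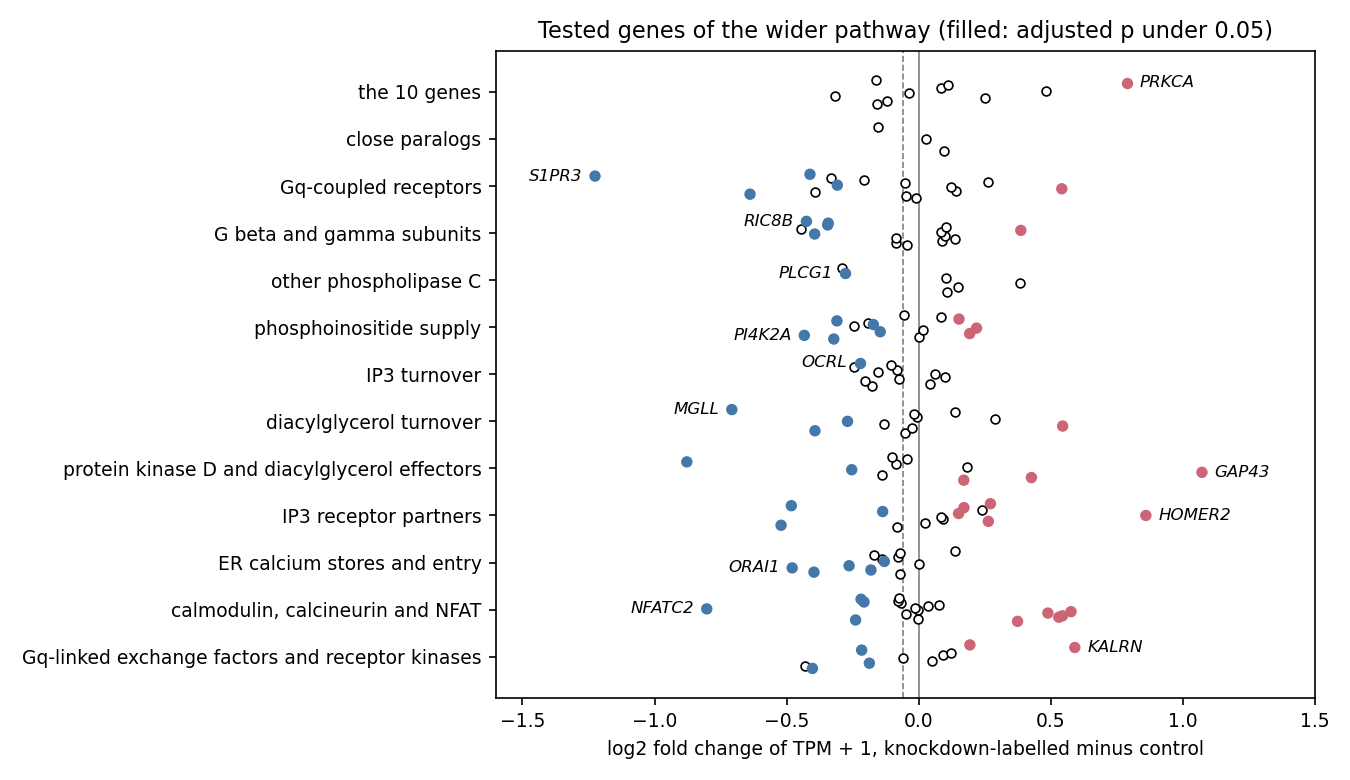
Log2 fold change of TPM + 1, knockdown-labelled minus control (horizontal axis), of every tested gene in the 10 genes and the 12 wider lists. Filled points passed at an adjusted p under 0.05 (red higher, blue lower), the dashed line is the median of all tested genes, and the largest change past the test is named for each list. The named genes run from S1PR3 at -1.23 to GAP43 at 1.07.

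Proteins that bind IP3 receptors passed in 8 of 13 tested cases, 5 higher (HOMER2, HOMER3, VDAC1 and ERLIN2 among them) and 3 lower (AHCYL2, HSPA9 and TESPA1), beside 12.1% higher and 24.0% lower of all tested genes. HOMER2, a scaffold that ties receptors at the membrane to IP3 receptors, rose from 28.31, 29.41 and 29.83 TPM in NC to 53.05, 53.57 and 54.76 TPM in KD (log2 fold change 0.86, limma adjusted p = 1.56e-05). VDAC1, the mitochondrial channel to which released calcium passes and the most abundant of the list, rose from 304.8 ± 3.14 to 368.3 ± 0.542 TPM (SD, n = 3 each; limma adjusted p = 8.26e-05). AHCYL2, a relative of the IP3 receptor inhibitor AHCYL1, fell from 8.41 to 5.59 TPM (limma adjusted p = 0.00681). AHCYL1 itself had a log2 fold change of -0.08 and did not pass (limma adjusted p = 0.27).

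Of 12 tested genes of the calcium store and of calcium entry, ORAI1, ORAI2, CALR, CANX and SARAF fell and 0 rose, beside 24.0% lower and 12.1% higher of all tested genes. ORAI1, the pore of store-operated calcium entry, fell from 37.8 ± 1.28 to 26.8 ± 0.867 TPM, and CALR, the calcium-binding chaperone calreticulin, from 1393 ± 4.25 to 1058 ± 9.27 TPM (SD, n = 3 each; limma adjusted p = 0.00033 and 7.38e-06). The call of ORAI2 was lost without NC replicate 1, NC replicate 3, KD replicate 1 or KD replicate 2 (limma adjusted p up to 0.13).

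Calcium readers downstream were split, with 5 higher and 4 lower of 18 tested. CALM2, PPP3CC, NFATC2 and RCAN1 fell. CALM2, the most abundant of the list, went from 699.4 ± 1.55 to 592.6 ± 11.3 TPM (SD, n = 3 each; limma adjusted p = 0.000195). Among those that rose were the kinases CAMK1, CAMK2D, CAMK4 and CAMKK1, which rose by 0.49 to 0.58 on the log2 scale, CAMK4 not past the test without KD replicate 1 or KD replicate 3 (limma adjusted p up to 0.0533). NFATC2, a transcription factor that calcineurin activates, was 6.80, 5.21 and 3.99 TPM in NC and 2.47, 2.70 and 2.55 TPM in KD (log2 fold change -0.80, limma adjusted p = 0.0104). RCAN1, a calcineurin inhibitor that NFAT induces, fell by 0.22 on the log2 scale, a call lost without any 1 library other than KD replicate 1 (limma adjusted p up to 0.126).

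In the last list, of exchange factors that couple Gq to small GTPases and of receptor kinases and arrestins, all 10 genes were tested, and 2 rose and 3 fell. TRIO, an exchange factor that binds active Gq, rose from 75.5 ± 3.62 to 86.5 ± 2.46 TPM (SD, n = 3 each; limma adjusted p = 0.0129). The other was its relative KALRN, at 0.77, 0.63 and 0.46 TPM in NC and 1.68, 1.40 and 1.24 TPM in KD. It averaged 1 TPM over the 6 libraries only through the KD group, so its call (log2 fold change 0.59, limma adjusted p = 0.0242) supports nothing about the list. It fell under the limit without any 1 of the KD libraries, and it did not pass without NC replicate 2 or NC replicate 3 (limma adjusted p up to 0.0658). ARHGEF25, GRK6 and ARRB2 fell by 0.40, 0.22 and 0.19 on the log2 scale. The call of ARHGEF25 was lost without NC replicate 3, KD replicate 2 or KD replicate 3, and that of GRK6 without any 1 library other than NC replicate 3 (limma adjusted p up to 0.06 and 0.177).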

How the data were processed

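Per the labels, the processing notes of the submitters name fastp, RSEM and the build GRCh38.p13. The aligner, annotation and versions are not given in the sources used here. The authors deposited TPM with 2 decimals in a table of 61731 genes and loci, including 190 MSTRG loci. The labels name an RNeasy and a SMARTer kit, the paper TRIzol and TruSeq. TPM keeps no depth, so no counting error is given, and no count test was run.

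All 6 columns matched a sample title. Symbols were found for 61369 of 61541 Ensembl identifiers, and 58366 were in GENCODE 29 (GRCh38). log2(TPM + 1) was fitted with limma 3.58.1 in R 4.3.3 (group as the only term, mean-variance trend) over genes that averaged 1 TPM or more. All adjusted p-values are Benjamini-Hochberg values over these genes. Shares and CHRM3 were compared by exact two-sided permutation tests in SciPy 1.17.1. In simulated data for KD against NC with 13722 genes and 200 changed, 81 of 100 changes of 1 and 53 of 100 changes of 0.5 on the log2 scale were found, beside 10 false calls. Without any changed gene there were 0 calls. The share of genes changed in the simulation was far below the 36.1% of tested genes that passed in the data. These rates therefore do not give the share of true changes found in the data.

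The members, the lists and the tests were chosen with earlier results of these data known. By rule, the named genes were the 10 genes, CHRM3, their close paralogs, and from each wider list the largest change past the test and the most abundant gene. Further genes that passed in these lists, and marker genes, were named after their values were seen. Alternatives changed the pseudocount, the low-value limit, the scaling, the trend or the fold limit, added a replicate block, or left out a library. Some genes of these lists are counted but not reported here by name.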

Additional observations from a re-analysis of the deposited data

How the results depend on the processing

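PRKCA passed under all 16 alternatives, with log2 fold changes of 0.77 to 0.87 and adjusted p of at most 0.00211. The number of the 10 genes that passed was 1, and it was 3 with median-of-ratios scaling and with quantile normalization (PRKCA, ITPR1 and PLCB3, all higher), 2 with a limit of 5 TPM (PRKCA and ITPR1, with 7 genes tested), and 1 to 3 when each library was left out in turn. A replicate block gave 2 (ITPR1 at an adjusted p of 0.0329). The deviations of same-numbered libraries correlated at -0.0198, 0.0341 and 0.0334. NC replicate 2 and NC replicate 3 correlated best with the KD library of their own number, and NC replicate 1 with KD replicate 3 (0.0336). Correlations this small cannot decide whether the numbers mark pairs. The block called 4007 genes in place of 4955. When the log2 fold change also had to reach 1, 256 genes were called, and 0 of the 10. The totals of the wider lists and of all tested genes stayed within 1.5 times their values under the other alternatives, but the genes of the wider lists that were lower went from 35 to 23 with quantile normalization.

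Signs turned only where a difference was near 0. The ITPR3 log2 fold change was 0.032 and 0.047, and the GNB1 log2 fold change 0.027 and 0.036, with median-of-ratios scaling and quantile normalization. With each library left out in turn, the log2 fold change ran from -0.011 to 0.21 for PRKCE, -0.054 to 0.096 for PRKCH, -0.022 to 0.11 for IMPA2 and -0.050 to 0.17 for the leukocyte marker CORO1A. The difference in share ran from -0.112 to 1.26 percentage points for GNAQ and from -0.103 to 0.406 for PLCB4. The cause was not tested. Among 79 named genes and 16 alternatives, 21 genes lost their call in at least 1. Unknown depth, 3 libraries a group and the 2 decimals of the values limit what can be said of genes near 1 TPM, such as PLCB1 and PLCB4.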
